A study of Trichoderma reesei with 36 samples.

Results

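The comparison described here asks how the transcriptome of *Trichoderma reesei* Rut-C30 differed 48 h after the start of the feed between cultures fed a mixture of 75% glucose and 25% lactose (G75-L25) and cultures fed pure lactose (L100). The libraries were taken from the growth labels of the libraries, which gave 4 libraries on G75-L25 and 6 on L100, or 10 of the 36 libraries of the series. Every culture was of Rut-C30, a mutant line selected for high cellulase secretion that carries a truncated *cre1*, and each was first grown on glucose in batch and then split into flasks that received a feed of pure glucose (G100), pure lactose or a mixture. The protocol describes each replicate as a separate inoculated culture whose broth was divided among the feeds, but the labels name no culture, so that no G75-L25 library could be paired with an L100 library of the same inoculum or a 24 h library with a 48 h one. Titles start with 2015 for both mixtures and with 2014 for both pure feeds. Feed and label year therefore cannot be told apart for any gene, and no within-year value exists. RNA was extracted from whole mycelium, in which fewer hyphae with a transcript and less transcript per hypha cannot be told apart.

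*T. reesei* degrades plant cell walls with secreted enzymes. Cellobiohydrolases and endoglucanases cut cellulose, lytic polysaccharide monooxygenases (LPMO) open it by oxidation, and β-glucosidases split the released cellobiose. Lactose, a soluble disaccharide of glucose and galactose, turns these genes on through the transcription factor XYR1 and with the permease CRT1, whereas glucose represses them by carbon catabolite repression, which is weakened in Rut-C30 by the loss of full-length CRE1. G75-L25 supplies both sugars at once.

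The 10 libraries held between 16364418 and 34114913 counts. No pair of libraries held identical values. The genes listed as deleted in Rut-C30 served as a check of the strain: 29 of 30 had 0 counts in all 10 libraries, and the remaining one, the truncated *cre1*, had 18224 to 44775. Distances between libraries, as the root mean square of the difference in log2 CPM (normalized counts on the TMM scale) over the genes tested, showed that a library on each side stood apart from its label. The library labelled L100 with the title 2014_274 (replicate 3) lay 1.36 from the mean of the other L100 libraries at 48 h and 0.72 from that of G100 at 48 h, while the other 5 L100 libraries lay 0.40 to 0.50 from their own group. The library labelled G75-L25 with the title 2015-431 (replicate 4) lay 0.72 from the other G75-L25 libraries at 48 h and 0.52 from L100 at 48 h, while 2015-425, 2015-427 and 2015-429 lay 0.32 to 0.46 from their own group. Of the 10 libraries, 6 lay nearest to their own group. Beside the former 2, the exceptions were 2014_275, at 0.386 from L100 at 24 h and 0.404 from its own group, and 2015-425, at 0.458 from G90-L10 at 48 h and 0.459 from its own group. These margins are narrow, and the own-group means hold 2014_274 for the former and 2015-431 for the latter. Distances to means without those libraries were not taken. The 10 most abundant genes held 32.1 to 36.6% of the counts in those 5 L100 libraries and 9.86% in 2014_274. On G75-L25 they held 16.8 to 18.8% in 3 libraries and 24.1% in 2015-431. Fits were therefore made with both libraries (36 libraries in the model) and without them (34 libraries). Fold changes and counts are from the 34 libraries unless stated, and a second pair of values in a parenthesis is the log2 fold change and the adjusted p over all 36. Levels are given below for the remaining 3 G75-L25 and 5 L100 libraries, with 2015-431 and 2014_274 named apart.

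**Figure D1:**
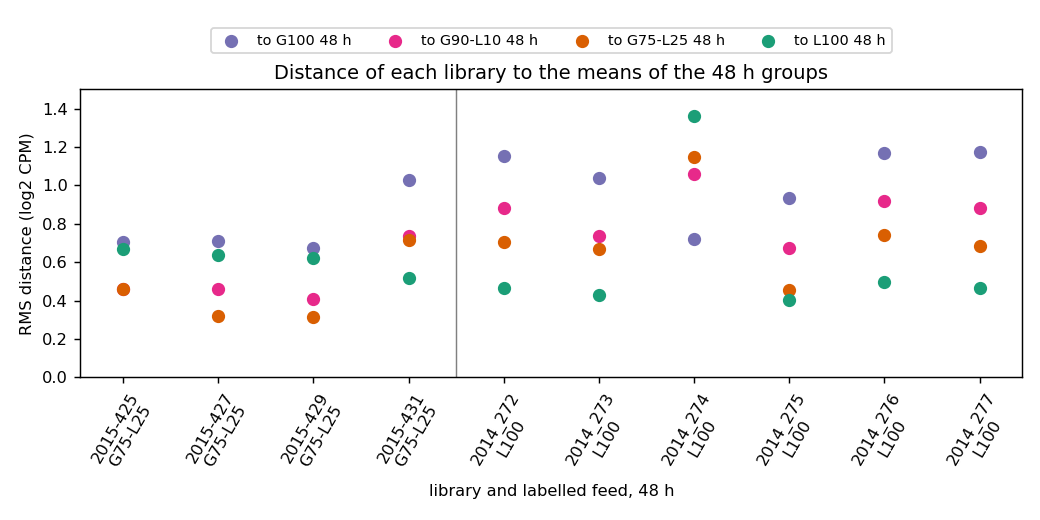
Distance of each of the 10 libraries (x axis, with its labelled feed) to the mean of all other libraries of each 48 h group (y axis, root mean square difference in log2 CPM), 1 coloured point per group. The library 2014_274 lies nearest to G100 at 0.72 and farthest from L100 at 1.36, and 2015-431 lies nearer to L100 (0.52) than to G75-L25 (0.72).

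Differential expression (DE) was called by edgeR's quasi-likelihood test with Benjamini-Hochberg adjustment, where the adjusted p was below 0.001 and the log2 fold change was beyond 2 in either direction. Fold changes are G75-L25 minus L100, so that a positive value stands for a higher level on the mixture. Without the 2 libraries, 149 of 8332 genes tested were DE (1.79%), of which 81 were higher on G75-L25 (0.972%) and 68 lower (0.816%). With all libraries, 27 of 8347 were DE (0.323%), 25 higher (0.3%) and 2 lower (0.024%). Of these 27 genes, 26 were also DE without the 2 libraries. The exception was ID 49274, named after its values were seen, whose log2 fold change was 2.25 with all libraries and 1.81 without the 2. At an adjusted p below 0.05 and no limit on the fold change, 3962 genes (47.6%) differed without the 2 libraries, 2053 higher (24.6%) and 1909 lower (22.9%), and 2279 (27.3%) with all of them, 1172 higher (14.0%) and 1107 lower (13.3%). Of the genes tested, 39.5% had groups that did not overlap among the 8 remaining libraries, 19.6% with the higher and 19.9% with the lower levels on G75-L25, and 7.6% among all 10. When only the libraries of the 2 feeds at 48 h entered the model, with 2015-431 and 2014_274 included, no gene was DE in edgeR, although 1863 had an unadjusted p below 0.05 and DESeq2 over all 36 libraries called 40. The same model without them called 90. Leaving out 1 of the 10 libraries at a time gave 20 to 72 DE genes, with 72 without 2014_274, 59 without 2015-431 and 41 without 2014_275. Scaling by library size alone in place of TMM moved the median over all genes tested from 0.02 to 0.45 (log2) over the 34 libraries, and 174 of 210 DE genes (82.9%) were then higher on G75-L25, against 54.4% with TMM. All values below are relative to the TMM scale.

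**Figure D2:**
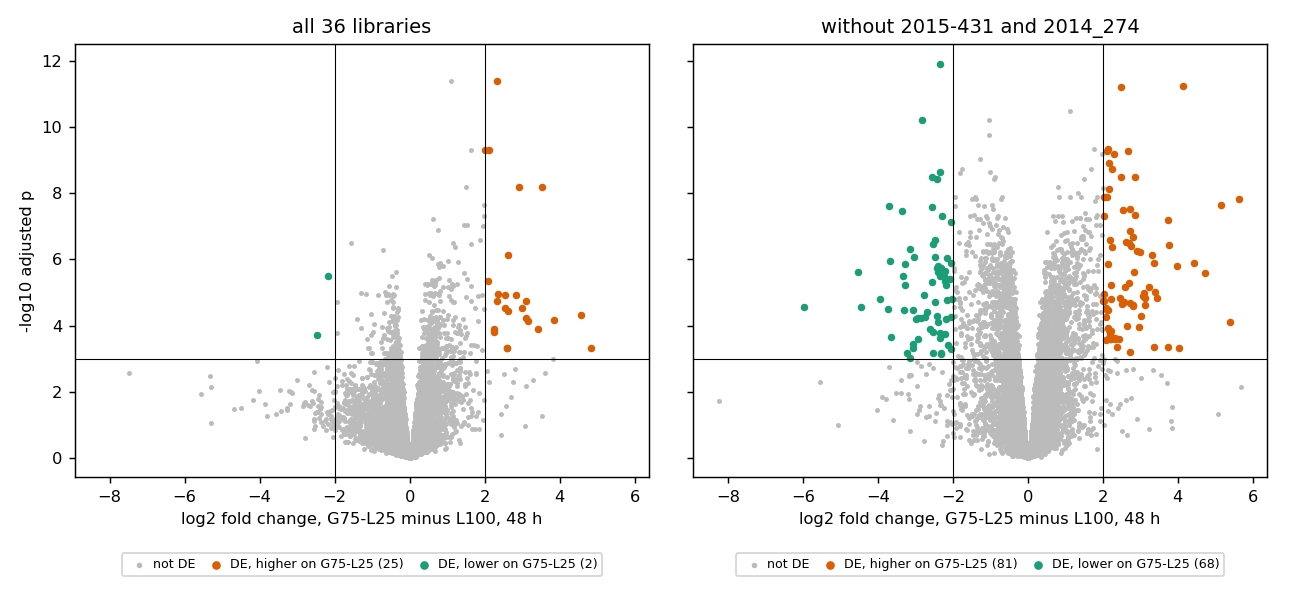
Log2 fold change of each gene tested at 48 h (x axis, G75-L25 minus L100) against −log10 of its adjusted p (y axis), over all 36 libraries (left) and without 2015-431 and 2014_274 (right), with lines at the DE thresholds. DE genes are coloured by direction, 25 higher and 2 lower on the left, 81 higher and 68 lower on the right.

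Most cellulases and their accessory proteins were lower on G75-L25 than on pure lactose, but by less than the DE threshold. Of the 12 genes of this list, none was DE in either fit, 9 were lower at an adjusted p below 0.05 without the 2 libraries and 3 with all of them, and none was higher. The list's median log2 fold change was -1.38 without the 2 libraries and -0.94 with all, against 0.02 and -0.03 over all genes tested. In the whole annotation table, 11.6% of 646 genes tested were DE and higher and 9.44% DE and lower, and 37.2% were higher and 37.5% lower at an adjusted p below 0.05. This list, like the others below taken from the study's annotation table, holds genes that were chosen on these samples, so that its counts are no independent evidence of a direction. The summed level of the 12 genes ran from 122164 to 140930.0 CPM in 3 G75-L25 libraries and from 374784 to 463893 CPM in 5 L100 libraries. It was 223322 CPM in 2015-431 and 10420.3 CPM in 2014_274.

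CBH1, the main cellobiohydrolase, had 52400.5, 62074 and 58903 CPM on G75-L25 and 189048, 169535, 159678, 159390.0 and 206465 CPM on L100, or 57793 ± 4932 (SD, n = 3) against 176823 ± 20488 (SD, n = 5). The groups did not overlap, and 2015-431 with 105688 CPM lay between them, while 2014_274 with 4154 CPM lay below every other library. The log2 fold change was -1.61 (SE 0.29, adjusted p = 4.85e-05) without the 2 libraries and -1.09 (adjusted p = 0.101) with all.

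CBH2, a further cellobiohydrolase, had 23921, 27616 and 24376 CPM on G75-L25 and 98684, 92046, 87279, 94933 and 112752 CPM on L100, with 41342 in 2015-431 and 2262 in 2014_274. Its log2 fold change of -1.94 (SE 0.30, adjusted p = 8.56e-06) was the most negative of the list, and with all libraries it was -1.47 (adjusted p = 0.0281). Among the endoglucanases, CEL7B had 12521 to 14387 CPM on G75-L25 and 27831 to 36104 on L100, and CEL5A 7971 to 9048 against 19827 to 26521. Their log2 fold changes were -1.25 (SE 0.24, adjusted p = 0.000108, with all libraries -0.75 and 0.22) and -1.49 (SE 0.29, adjusted p = 0.000115, with all libraries -1.26 and 0.0391). With all libraries, CBH2, CEL5A and CIP1 were the 3 of the list that were lower at an adjusted p below 0.05. The endoglucanase CEL12A overlapped between feeds, with 253.1 to 443 CPM against 193 to 598 and a log2 fold change of -0.03 (SE 0.48, adjusted p = 0.967, with all libraries -0.15 and 0.851).

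The LPMO CEL61A had 2536, 2844 and 2974 CPM on G75-L25 and 8912, 9584, 7212, 10009.5 and 11716 CPM on L100. Its 7144 CPM in 2015-431 lay far above the other G75-L25 libraries, and its log2 fold change was -1.77 (SE 0.34, adjusted p = 0.0001) without the 2 libraries and -1.05 (adjusted p = 0.0872) with all. The other LPMO of the list, CEL61B, had 179, 138 and 109 CPM on G75-L25, values that overlapped with the 25.6 to 171 CPM on L100, and its log2 fold change was 0.78 (SE 0.61, adjusted p = 0.296, with all libraries 0.68 and 0.462). Swollenin SWO1, a protein that loosens cellulose, had 6494 to 8158 CPM on G75-L25 and 17966 to 22549 on L100, and CIP1, a secreted protein with a cellulose-binding module, had 6487 to 6699.8 against 20309 to 27045. Both genes had feeds that were apart, at log2 fold changes of -1.52 (SE 0.31, adjusted p = 0.000237, with all libraries -1.02 and 0.0971) and -1.84 (SE 0.23, adjusted p = 3.16e-07, with all libraries -1.28 and 0.0477). The xyloglucanase CEL74A (log2 fold change -1.17, SE 0.22, adjusted p = 0.000102, with all libraries -0.86 and 0.136) and the putative family 45 hydrolase ID 49976 (log2 fold change -1.28, SE 0.28, adjusted p = 0.00039, with all libraries -0.65 and 0.313) were also lower without the 2 libraries, whereas the esterase CIP2 was not called at 0.44 (SE 0.55, adjusted p = 0.526, with all libraries 0.30 and 0.71). The genes CEL12A, CEL61B and CIP2 were thus the ones of the 12 that missed an adjusted p of 0.05 without the 2 libraries, and for all 3 the 2 feeds overlapped.

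**Figure D3:**
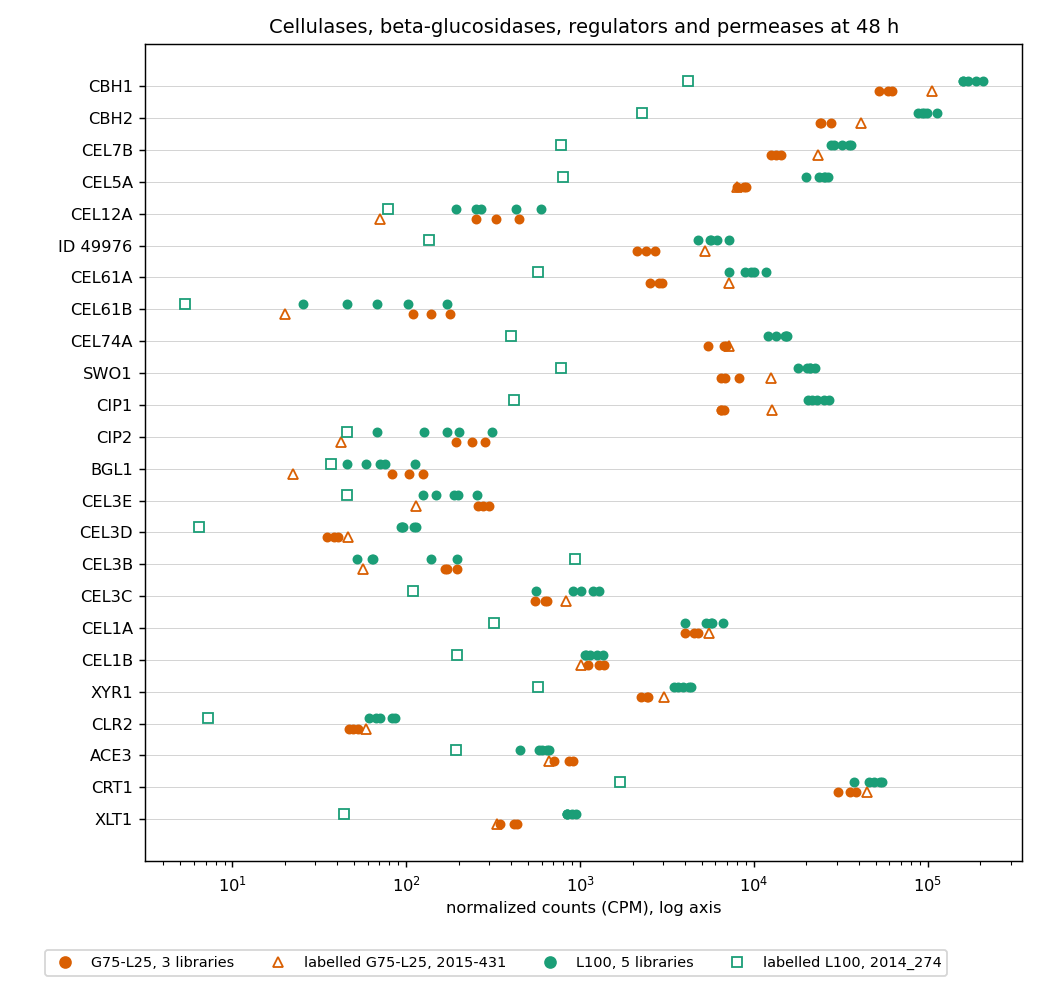
Normalized counts (x axis, CPM, log axis) of cellulase, β-glucosidase, regulator and permease genes (y axis) in each of the 10 libraries at 48 h. Filled points are 3 G75-L25 and 5 L100 libraries, and open symbols are 2015-431 and 2014_274. CBH1 lies at 52400.5 to 62074 CPM on G75-L25 and 159390.0 to 206465 CPM on L100, while CEL1B and BGL1 overlap.

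The β-glucosidases did not move as a group. Of 7 genes none was DE, 2 were higher and 1 lower at an adjusted p below 0.05 without the 2 libraries, and the median log2 fold change was 0.09. In the annotation table, 37.2% were higher and 37.5% lower at this level. CEL3D was the lower one, with 40.4, 38.5 and 35.1 CPM on G75-L25 and 114, 94.9, 92.8, 95.8 and 111 CPM on L100, groups that lay well apart at a log2 fold change of -1.42 (SE 0.14, adjusted p = 1.28e-08, with all libraries -1.10 and 0.0188). CEL3E, an extracellular enzyme, had 301, 277.2 and 258.99 CPM on G75-L25, just above the 124 to 255.9 CPM of L100, and a log2 fold change of 0.61 (SE 0.23, adjusted p = 0.0265, with all libraries 0.58 and 0.139). With 114 CPM, 2015-431 lay below all 5 of those L100 libraries. CEL3B had 167 to 196 CPM against 51.98 to 195 and a log2 fold change of 0.79 (SE 0.27, adjusted p = 0.0169), but 939 CPM in 2014_274 turned its direction with all libraries, to -0.71 (adjusted p = 0.295). BGL1, the major secreted β-glucosidase, had 125, 104 and 83.1 CPM on G75-L25 and 58.3, 74.9, 113, 45.6 and 70.5 CPM on L100. These values overlapped, and the log2 fold change of 0.52 (SE 0.50, adjusted p = 0.407, with all libraries 0.33 and 0.638) was not called. The intracellular CEL1A and CEL1B had 4020.0 to 4761 and 1115 to 1363 CPM on G75-L25 against 3995 to 6612 and 1065 to 1355 on L100. Neither was called, at -0.30 (SE 0.23, adjusted p = 0.288, with all libraries 0.03 and 0.966) and 0.09 (SE 0.18, adjusted p = 0.714, with all libraries 0.23 and 0.554), nor was CEL3C at -0.71 (SE 0.31, adjusted p = 0.059, with all libraries -0.36 and 0.504).

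XYR1 and CLR2 were lower on the mixture without the 2 libraries, with absolute log2 fold changes below 1, and ACE3 lay at the threshold of the test. XYR1, the main activator, had 2467, 2409 and 2248 CPM on G75-L25 and 4242, 3483, 3918, 3657 and 4363 CPM on L100, with 3045 in 2015-431 and 568 in 2014_274. The groups of 3 and 5 did not overlap, and the log2 fold change was -0.73 (SE 0.14, adjusted p = 0.000167) without the 2 libraries and -0.41 (adjusted p = 0.272) with all. CLR2, whose ortholog in *Neurospora crassa* drives cellulase genes, had 46.6 to 52.7 CPM on G75-L25 and 61.3 to 86.2 on L100, at -0.57 (SE 0.16, adjusted p = 0.00435, with all libraries -0.27 and 0.544). ACE3, a further activator of cellulase genes on lactose, had 862, 904 and 706 CPM on G75-L25 against 577, 452, 665, 603 and 645 CPM on L100, which did not overlap, with a log2 fold change of 0.49 (SE 0.20, adjusted p = 0.0484, with all libraries 0.58 and 0.0596). Over the 34 libraries its adjusted p was 0.06 with RLE, 0.0512 with no filter, 0.0508 in DESeq2 and 0.000389 with library-size scaling. It was 0.0475 with at least 10 counts in every library, 0.0162 with only the groups compared and 0.0189 without the library 2015-430 as well. With library-size scaling over the 34 libraries the log2 fold change was -0.29 (adjusted p = 0.0409) for XYR1 and -0.13 (adjusted p = 0.434) for CLR2. YPR1, an activator of the genes for yellow sorbicillinoid pigments, was DE without the 2 libraries. It had 23.9, 23.5 and 23.3 CPM on G75-L25 and 219, 50.5, 46.2, 165 and 142 CPM on L100, so that the mixture was even and lactose varied widely. Its log2 fold change was -2.40 (SE 0.45, adjusted p = 8.02e-05), and 127 CPM in 2015-431 and 1.42 in 2014_274 left -1.07 (adjusted p = 0.206) with all libraries. The transcription factor PMH29 had 26.4 to 52.4 CPM against 75.5 to 214 and was not DE at -2.03 (SE 0.67, adjusted p = 0.0145, with all libraries -0.98 and 0.235).

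Of the developmental regulators, Tr-WET-1, whose ortholog WetA acts in maturing conidia of *Aspergillus*, had 2.95, 2.82 and 2.62 CPM on G75-L25 and 0.403, 0.687, 1.596, 0.753 and 0.626 CPM on L100, at 1.77 (SE 0.27, adjusted p = 5.79e-06, with all libraries 0.67 and 0.218) without the 2 libraries. Tr-PRO1, the ortholog of a fruiting body regulator of *Sordaria*, had 132, 161 and 154 CPM against 44.2, 64.3, 130.5, 45.1 and 44.5 CPM. The groups were apart by a narrow margin, at 1.18 (SE 0.28, adjusted p = 0.00103). The level of 624 CPM in 2014_274 turned the direction with all libraries, to -0.37 (adjusted p = 0.616). Tr-ACON-3, the ortholog of a regulator of conidiation in *Neurospora*, also turned, with 89.6 to 109 CPM against 23.5 to 106 at 0.87 (SE 0.29, adjusted p = 0.0147), 791 CPM in 2014_274 and -1.16 (adjusted p = 0.158) with all libraries. None of these 3 was DE. Over the whole development and mating list, 1 of 8 genes tested was DE and higher, the mating pheromone receptor HPR1. Another 1 was DE and lower, the putative LsdA protein ID 65039, a relative of a protein of sexual development in *Aspergillus*. These counts stand beside 11.6% DE and higher and 9.44% DE and lower in the annotation table, and 0.972% and 0.816% of all genes tested. HPR1 had 15.3, 23.2 and 22.7 CPM on G75-L25 and 1.37, 2.56, 6.21, 2.26 and 1.82 CPM on L100, with a log2 fold change of 2.83 (SE 0.40, adjusted p = 2.46e-06, with all libraries 1.55 and 0.0225). The list's median was 1.45 without the 2 libraries and -0.19 with all. Its summed level was 6059.6 CPM in 2014_274, against 514 to 1138 in the other L100 libraries.

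The lactose permease CRT1 had 30516, 38638 and 35581 CPM on G75-L25 and 53255, 37529, 49111, 45633 and 54472 CPM on L100, with 44803 in 2015-431. The groups overlapped and no difference was called, at -0.46 (SE 0.23, adjusted p = 0.0941, with all libraries -0.11 and 0.87). The xylose permease XLT1 had 419, 432 and 345 CPM against 836, 844, 952, 839 and 899.5 CPM, groups that were apart by a wide gap at -1.13 (SE 0.15, adjusted p = 9.33e-07, with all libraries -0.95 and 0.0541). Of the 11 sugar transporters, 1 was DE and lower, the putative low-affinity glucose transporter ID 106556, with 14.99 to 19.98 CPM on G75-L25 and 28.02 to 115 on L100 at -2.34 (SE 0.48, adjusted p = 0.000231, with all libraries -0.66 and 0.417). At an adjusted p below 0.05, 7 were lower and 1 higher, and the list's median was -0.68. In the annotation table, 37.5% were lower and 37.2% higher at this level, and 9.44% were DE and lower. The log2 fold changes of the 3 genes of galactose use by the Leloir pathway, taken by RefSeq symbol, ran from -0.26 for *gal7* to 0.29 for *gal1*, and none was DE.

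Hemicellulases and side-chain enzymes, which strip xylan, mannan and pectin, were mostly lower on the mixture, but few passed the fold threshold. Of 29 genes, 2 were DE and lower and 1 DE and higher without the 2 libraries, and at an adjusted p below 0.05, 22 were lower and 5 higher. In the annotation table, 9.44% were DE and lower and 11.6% DE and higher, and 37.5% were lower and 37.2% higher at 0.05. Of all genes tested, 22.9% were lower and 24.6% higher at 0.05. The median log2 fold change was -1.16, and -0.91 with all libraries. The arabinofuranosidase ABF1 was DE in both fits. It had 119, 131 and 136 CPM on G75-L25 and 753, 1335, 767, 751 and 959.9 CPM on L100, a 7.1-fold difference. With 171 CPM, 2015-431 also lay below those L100 libraries, but 2014_274 had 29.1. The log2 fold change was -2.83 (SE 0.21, adjusted p = 6.14e-11) without the 2 libraries and -2.46 (adjusted p = 0.000192) with all. The α-galactosidase AGL3 had 88.8, 109 and 107 CPM against 1394, 819, 544, 1206 and 1087 CPM, at -3.31 (SE 0.58, adjusted p = 3.5e-05). In 2015-431 it had 803 CPM, within the range of L100, and it was not DE with all libraries, at -1.61 (adjusted p = 0.0818). The gene that was higher was the putative family 31 hydrolase ID 82235, with 344 to 471 CPM against 85.1 to 166 at 2.03 (SE 0.20, adjusted p = 1.25e-08, with all libraries 1.27 and 0.00401). The mannanase MAN1 (-1.98, with all libraries -1.69), the arabinofuranosidase ABF2 (-1.88, with all libraries -1.62) and the xylanases XYN1 (-1.45, with all libraries -1.10) and XYN3 (-1.16, with all libraries -0.90) had negative log2 fold changes that did not reach the threshold, with adjusted p of 1.78e-06, 9.81e-06, 0.00108 and 0.00317. The xylanase XYN2 had a log2 fold change of 3.02 (SE 0.84, adjusted p = 0.00399, with all libraries 1.67 and 0.133) and was not DE either. Of the 11 genes of pentose and galactose catabolism none was DE, while 9 were lower and 1 higher at an adjusted p below 0.05. These counts stand beside the same shares of 37.5% lower and 37.2% higher. The smallest adjusted p belonged to the xylulokinase XKI1, at -1.03 (SE 0.08, adjusted p = 1.72e-10, with all libraries -0.77 and 0.0142), and the most negative value to the putative D-galactose dehydrogenase ID 56840, at -1.95 (SE 0.19, adjusted p = 1.27e-08, with all libraries -1.53 and 0.0126).

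The DE genes with the smallest adjusted p that were higher on G75-L25 included cell wall, hydrolase and unknown proteins. Their levels in 2015-431 kept to the side of the other G75-L25 libraries. Most of them were picked in the fit over all 36 libraries, which counts 2015-431 as G75-L25, so that this is partly set by the choice. ID 121818, a putative non-anchored cell wall protein Ncw-2, had 215, 251.8 and 268.2 CPM on G75-L25, 184 in 2015-431 and 11.6, 10.3, 23.1, 9.79 and 14.6 CPM on L100, with 49.8 in 2014_274. All 4 libraries labelled G75-L25 lay above all 6 labelled L100, and the 17.6-fold difference gave a log2 fold change of 4.13 (SE 0.27, adjusted p = 5.48e-12) without the 2 libraries and 3.52 (adjusted p = 6.44e-09) with all. ID 65522, of unknown function, had 24.9, 26.8 and 33.2 CPM on G75-L25, 24.9 in 2015-431, and 3.51, 4.39, 7.14, 4.59 and 5.57 CPM on L100, with 7.19 in 2014_274. It had the smallest adjusted p over all libraries, at a log2 fold change of 2.34 (SE 0.15, adjusted p = 4.02e-12), and 2.49 (SE 0.16, adjusted p = 5.99e-12) without the 2. Its neighbour ID 50215, a putative family 16 glycoside hydrolase, had 209, 207 and 233 CPM on G75-L25 and 35.5, 41.6, 69.4, 54.4 and 44.8 CPM on L100, and 153 in 2015-431 kept the labelled groups apart. The log2 fold change was 2.14 (SE 0.17, adjusted p = 4.38e-10) and 2.00 (adjusted p = 4.78e-10). ID 79244, which the annotation table does not hold, had 541 to 565 CPM against 91.9 to 167, with 406 in 2015-431 and 79.96 in 2014_274, at 2.12 (SE 0.18, adjusted p = 5.06e-10, with all libraries 2.11 and 4.82e-10). ID 104461, a putative α/β-hydrolase, had 122, 162 and 179.8 CPM against 15.3, 12.9, 39.4, 18.9 and 19.7 CPM, at 2.86 (SE 0.26, adjusted p = 3.12e-09, with all libraries 2.91 and 6.44e-09), and ID 122487, a putative DNAse, had 2952 to 3856 against 316 to 836, at 2.72 (SE 0.29, adjusted p = 2.9e-08, with all libraries 2.62 and 7.53e-07). The groups did not overlap for either gene among all 10 libraries. The same was true of ID 63217, of unknown function (log2 fold change 2.67, SE 0.22, adjusted p = 5.06e-10, with all libraries 2.09 and 4.52e-06), and of ID 54198, a putative glycoside hydrolase (log2 fold change 2.30, SE 0.19, adjusted p = 6.21e-10), which with all libraries had a value of 1.81 (adjusted p = 7.25e-05) and missed the fold threshold. Of the 81 genes DE and higher without the 2 libraries, 21 had groups that did not overlap among all 10 libraries, beside 4.55% of all genes tested in this direction. Of the 68 that were lower, 2 had such groups, beside 3.04%. The DE genes were called for a large difference in 8 of these 10 libraries, so that both counts are partly set by that choice.

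Of the genes that were lower on G75-L25, the chitinase CHI18-9, an enzyme of family 18 that cuts chitin, had the smallest adjusted p without the 2 libraries. It had 31.5, 34.8 and 34.5 CPM on G75-L25 and 211, 165, 128, 184 and 171 CPM on L100, a 5.11-fold difference, with 54.1 in 2015-431 and 25.6 in 2014_274. The log2 fold change was -2.35 (SE 0.14, adjusted p = 1.18e-12), and -1.93 (adjusted p = 1.92e-05) with all libraries. ID 72780, a putative bZIP transcription factor, and ABF1 were the 2 genes that were also DE with all libraries. ID 72780 had 5.73, 6.405 and 4.09 CPM on G75-L25, 8.43 in 2015-431, 36.7, 27.8, 18.98, 49.3 and 27.1 CPM on L100 and 8.61 in 2014_274, so that the labelled groups were just apart. Its log2 fold change was -2.56 (SE 0.24, adjusted p = 3.12e-09) and -2.18 (adjusted p = 3.23e-06). ID 105848, a putative acyltransferase, had 4.79 to 7.26 CPM against 21.6 to 33.99, and the unknown ID 123261 had 14.3 to 16.8 against 49.8 to 113, at -2.34 (SE 0.21, adjusted p = 2.29e-09, with all libraries -1.68 and 0.00416) and -2.43 (SE 0.23, adjusted p = 3.62e-09, with all libraries -1.57 and 0.0054). ID 112133, also unknown, had 0.175 to 0.403 CPM against 1.95 to 7.002, at -3.72 (SE 0.39, adjusted p = 2.44e-08, with all libraries -2.56 and 0.00262). In 2014_274 the last 3 genes had 1.26, 6.45 and 0.0322 CPM, below the other L100 libraries, and none of them was DE with all libraries. Of the 68 genes DE and lower, 39 had a level in 2015-431 within the range of the 5 L100 libraries and 3 within that of the other 3 G75-L25 libraries. For the 81 higher genes these counts were 40 and 2. In 2014_274, 0 of the 68 and 11 of the 81 lay within the range of the other L100 libraries. These genes were called without the 2 libraries, which favours narrow ranges that lie apart in the rest. The counts are thus partly set by that choice, and no share over all genes tested was taken.

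**Figure D4:**
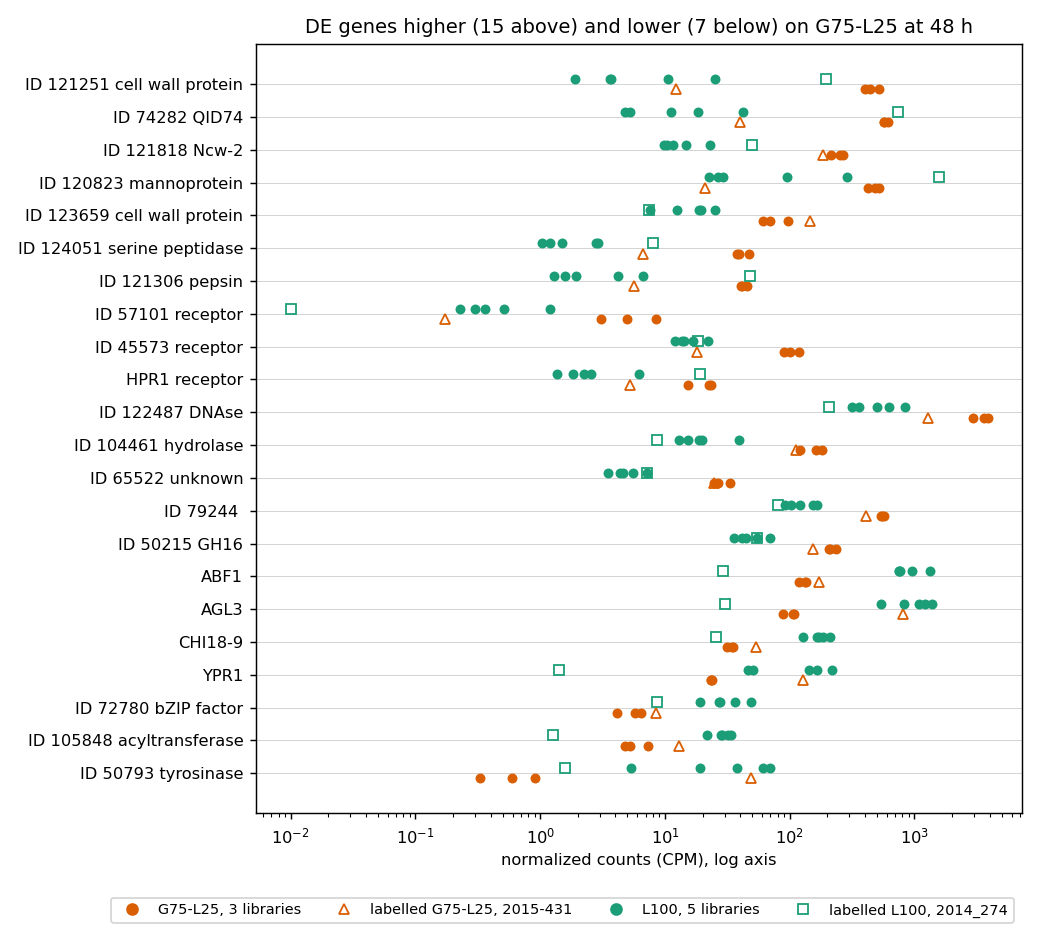
Normalized counts (x axis, CPM, log axis) of 15 DE genes that were higher and 7 that were lower on G75-L25 (y axis) in each of the 10 libraries. Filled points are 3 G75-L25 and 5 L100 libraries, open symbols are 2015-431 and 2014_274, and the leftmost square, ID 57101 in 2014_274, stands for 0 counts. For ID 121251 the 3 G75-L25 libraries lie at 403 to 518 CPM and the 5 L100 libraries at 1.88 to 25.4 CPM, with 2015-431 at 12.3 and 2014_274 at 194.

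Of 11 hydrophobins and cell wall proteins, which form the outer layer of hyphae and spores, 5 were DE and higher on G75-L25 without the 2 libraries and none was DE and lower, while 2 were DE and higher with all libraries. These counts stand beside 11.6% DE and higher in the annotation table and 0.972% of all genes tested. The putative cell wall protein ID 121251 had 403, 438 and 518 CPM on G75-L25 and 3.63, 10.6, 25.4, 1.88 and 3.697 CPM on L100, a log2 fold change of 5.62 (SE 0.57, adjusted p = 1.52e-08, with all libraries 3.10 and 0.00675), and the putative QID74 protein ID 74282 had 573, 618 and 575 CPM against 11.1, 41.9, 18.3, 4.74 and 5.29 CPM, at 5.16 (SE 0.54, adjusted p = 2.32e-08, with all libraries 1.73 and 0.137). In 2015-431 both lay within the range of L100, at 12.3 and 40.2 CPM, and in 2014_274 they had 194 and 732. The putative mannoprotein ID 120823 (2.36, with all libraries 0.09) and the cell wall protein ID 123659 (2.19, with all libraries 2.63) were the other DE members beside ID 121818, with adjusted p of 0.000457 and 0.000177. The hydrophobins HFB2 and HFB3, small proteins that coat aerial hyphae and conidia, were not DE, with log2 fold changes of 1.72 (SE 0.56, adjusted p = 0.0127) and 1.48 (SE 0.44, adjusted p = 0.00679). HFB2 had 21603 CPM in 2014_274, 75.1 to 1501 in the other L100 libraries and 1484 to 2078 on G75-L25, and with all libraries the values were -1.60 (adjusted p = 0.228) and -1.11 (adjusted p = 0.314). The list's median log2 fold change was 1.97 without the 2 libraries and 0.09 with all.

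Of 20 proteases, 7 were DE and higher and 1 DE and lower without the 2 libraries, beside 11.6% and 9.44% in the annotation table and 0.972% and 0.816% of all genes tested, and 2 were DE and higher with all. The median log2 fold change was 1.34 without the 2 libraries and 0.08 with all. The serine peptidase ID 124051 had 39.4, 47.1 and 37.8 CPM on G75-L25 and 1.49, 2.88, 2.79, 1.205 and 1.02 CPM on L100, at 4.42 (SE 0.60, adjusted p = 1.26e-06), and the putative subtilisin ID 35726 had 1.06 to 2.05 against 0 to 0.202, at 3.76 (SE 0.47, adjusted p = 3.6e-07). Both were DE with all libraries too, at 3.43 (adjusted p = 0.000129) and 3.11 (adjusted p = 1.83e-05). The lower one was the putative pepsin ID 122076, at -2.06 (SE 0.28, adjusted p = 1.24e-06, with all libraries -1.26 and 0.00629). Among 13 G-protein coupled receptors, which sense signals at the cell surface, 4 were DE and higher and none DE and lower without the 2 libraries, 11 were higher at an adjusted p below 0.05 (37.2% in the annotation table), and the median was 1.64 without the 2 libraries and 0.12 with all. The receptors of the PTH11 type ID 57101 and ID 45573 had log2 fold changes of 3.36 (SE 0.74, adjusted p = 0.000453, with all libraries 3.28 and 0.00443) and 2.71 (SE 0.32, adjusted p = 1.38e-07), and the latter was the member that was DE with all libraries, at 2.34 (adjusted p = 1.77e-05), and was named for that reason after its values were seen.

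Of the 25 transcription factors, 3 were DE and higher and 3 DE and lower without the 2 libraries. The bZIP factor ID 72780 was the one that was DE with all. DE counts in this paragraph stand beside 11.6% higher and 9.44% lower in the annotation table, and 0.972% and 0.816% of all genes tested. The median was 0.66 without the 2 libraries and -0.17 with all. The factor with the largest positive value, the Zn(2)Cys6 protein ID 105805, had 6.08, 4.65 and 5.28 CPM on G75-L25 and 0, 1.01, 0.576, 0.151 and 0.171 CPM on L100, at 3.73 (SE 0.81, adjusted p = 0.000432, with all libraries 3.61 and 0.00271). Another one, ID 59740, had 33.5 to 36.5 against 5.63 to 12.01, at 2.23 (SE 0.28, adjusted p = 4.28e-07, with all libraries 1.99 and 3.09e-05). The 7 chitinases of the annotation table had a median of 1.35 without the 2 libraries and -1.19 with all, and CHI18-9 was their one DE member. Over the 15 chitinase genes tested by RefSeq symbol the median was 0.21 without the 2 libraries and -0.66 with all. Of 14 cytochrome P450 genes, 3 were DE and higher and 1 DE and lower without the 2 libraries, none was DE with all, and the median was 1.09 without the 2 libraries and -0.35 with all. Of 13 genes of secondary metabolism, 2 were DE and higher, the putative clavaminate synthase ID 53053 (3.08) and terpenoid synthase ID 67738 (2.91, with all libraries 2.24), and 1 DE and lower, YPR1. Their median was 0.81 without the 2 libraries and -0.08 with all. In 2014_274, ID 53053 had 32.6 CPM against 0 to 1.11 in the other L100 libraries, and the log2 fold change with all libraries was -1.21 (adjusted p = 0.344).

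Other transporters had DE genes in both directions. Their counts stand beside 11.6% DE and higher and 9.44% DE and lower in the annotation table, and 0.972% and 0.816% of all genes tested. Of 12 amino acid and peptide transporters tested, 2 were DE and higher, the putative peptide transporter ID 46794 (3.11, with all libraries 1.05) and amino acid transporter ID 66819 (3.10, with all libraries -0.28), and 3 DE and lower, among them the oligopeptide transporter ID 70934 (-3.94, with all libraries -1.62) and the Na+/proline transporter ID 56911 (-2.56, with all libraries -1.76). None of the 5 was DE with all libraries. Of 30 other MFS transporters tested, 5 were DE in each direction without the 2 libraries, and 2 were DE and higher with all. The strongest were ID 105798 and ID 56095 among the higher and ID 69901 and ID 54461 among the lower. ID 105798 had 0 to 2 counts in every L100 library and 1.77, 1.903 and 1.96 CPM on G75-L25, so that its level was at least 11.9-fold higher than the floor of 3 counts per library. In 2015-431 it had 0.0856 CPM, within the L100 range of 0 to 0.0887. Over all 10 libraries the bound was 9.7-fold for the mean of the libraries labelled G75-L25 (1.43 CPM, SD 0.90). It does not hold for 2015-431, which lay below the floor of 0.147 CPM. ID 69901 had 0.1098 to 0.28 CPM on G75-L25 and 1.15 to 6.78 on L100, at -4.52 (SE 0.64, adjusted p = 2.34e-06, with all libraries -2.37 and 0.0207). At the floor stood also L100 for ID 66592, a putative fumarylacetoacetate hydrolase that was at least 3.27-fold higher on G75-L25, and G75-L25 for ID 106493, which was at least 4.56-fold lower. Both were named after their values were seen.

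Several genes of protein folding and secretion were lower on G75-L25, by less than the DE threshold. Of 4 genes of folding in the endoplasmic reticulum, from the annotation table, none was DE. At an adjusted p below 0.05, 3 of them were lower, beside 37.5% in that table. Of 13 genes of the secretory pathway by RefSeq symbol 9 were lower and none higher, beside 22.9% lower and 24.6% higher of all genes tested. With all libraries 1 of the 4 was lower, beside 131 of 646 genes of the annotation table, and 7 of the 13, beside 13.3% of all genes tested. The 13 had a median log2 fold change of -0.54 without the 2 libraries and -0.38 with all. The chaperone BIP1 had 3189 to 3499 CPM on G75-L25 and 6385 to 8663 on L100, at -1.2 (SE 0.17, adjusted p = 3.06e-06, with all libraries -0.84 and 0.0165), and the disulfide isomerase *pdi1* (ID 122415) had 1831 to 1923 against 3093 to 3989, at -0.94 (SE 0.15, adjusted p = 1.13e-05, with all libraries -0.68 and 0.00607). Ribosomal protein genes differed by less: 24 of 40 were higher at an adjusted p below 0.05 and none lower without the 2 libraries. With all libraries 3 were higher, a smaller share than the 14.0% of all genes tested. The median was 0.33 without the 2 libraries and 0.15 with all. Of 6 proteasome subunits 4 were lower and none higher without the 2 libraries, and 3 were lower with all, beside 13.3% of all genes tested. The median was -0.27 without the 2 libraries and -0.21 with all. With library-size scaling over the 34 libraries, the median was 0.76 for the ribosomal proteins, 0.16 for the proteasome subunits and -0.11 for the secretory genes. The median over all genes tested moved from 0.02 to 0.45 with this scaling. The sign of the proteasome list's median thus rests on the TMM scale, but the list lay below the median of all genes under both scalings. The lists by symbol were made after the files had been read. Among further symbol lists without a DE member, 2 of 5 histone genes were higher at an adjusted p below 0.05, 4 of 6 regulators of cellulase genes were lower, 3 of 9 genes of G protein and cAMP signalling were higher and 2 lower, both of 2 light receptor genes were lower, and 1 of 4 genes of xylose and arabinose use was lower, without the 2 libraries. With all libraries these counts were 0 histone genes, 1 regulator lower and 1 higher, 2 signalling genes higher and 2 lower, 1 light receptor lower and 0 genes of xylose and arabinose use, beside 14.0% higher and 13.3% lower of all genes tested. With library-size scaling over the 34 libraries the median turned from -0.39 to 0.05 for the regulators by symbol, from -0.42 to 0.01 for the light receptors, from -0.19 to 0.25 for xylose and arabinose use and from -0.05 to 0.39 for the signalling genes. Each of these lists lay below the median over all genes tested under both scalings.

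Of the 149 genes DE without the 2 libraries, 136 are among the 649 genes of the annotation table that occur in the files. The table gives a protein of unknown function for 19 of the higher and 18 of the lower genes. Of the DE genes, the most negative log2 fold change belonged to ID 50793, a putative tyrosinase named after its values were seen. It had 0.5904, 0.329 and 0.9098 CPM on G75-L25 and 69.9, 19.1, 5.36, 60.7 and 37.9 CPM on L100, at -5.96 (SE 1.02, adjusted p = 2.75e-05, with all libraries -1.35 and 0.318), but 48.9 CPM in 2015-431 and 1.58 in 2014_274. In the gene order of the table, 41 of the 136 genes stood in 18 runs of DE genes that followed each other directly or with 1 gene between. How many runs other genes of the table would form was not tested, and its genes were chosen on these samples. The longest run held 4 genes on chromosome II, all higher on G75-L25. They were the receptor ID 57101 (3.36), the cytochrome P450 ID 56272 (2.63, with all libraries 2.52), the methyltransferase ID 104393 (2.81, with all libraries 2.60) and the lipase or esterase ID 104394 (4.72, with all libraries 4.56), all putative and given as log2 fold changes. A run of 3 higher genes on chromosome I held the putative acetyl-CoA synthetase ID 44362, the clavaminate synthase ID 53053 and the unknown ID 54768, which with all libraries had log2 fold changes of -2.24, -1.21 and -2.51 in place of 3.12, 3.08 and 2.96. Runs of 3 lower genes held AGL3 with the putative MFS transporter ID 69834 and ID 111875 on chromosome III, and the putative tyrosine decarboxylase ID 109376, family 64 hydrolase ID 65137 and amidase ID 109378 on chromosome I. In 2 of the 18 runs the members had opposite directions. Genes in these runs were named after their values were seen.

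The other feeds at 48 h give the levels their place. On G90-L10, the mixture of the same label year with less lactose, CBH1 had 27205 and 25278 CPM in 2 libraries, and on pure glucose 4576 to 14729 CPM in 6 libraries. XYR1 had 1861 and 1542 CPM on G90-L10 and 744 to 1249 on G100, and ABF1 had 43.3 and 62.9 CPM on G90-L10 and 11.6 to 19.8 on G100. The level of 2014_274 for CBH1, 4154 CPM, lay below all 6 libraries on pure glucose. Of the genes that were higher on the mixture, ID 121818 had 308 and 117 CPM on G90-L10 and 86.7 to 227 on G100, and ID 65522 had 30.99 and 31.3 CPM on G90-L10 and 26.5 to 40.7 on G100, with overlap between all 3 feeds in both genes. The DNAse ID 122487 had 3055 and 2413 CPM on G90-L10 and 1488 to 2299 on G100, and ID 104461 had 164 and 78.4 CPM on G90-L10 and 44.5 to 93 on G100. For ID 122487 the 2 G90-L10 libraries and the 3 G75-L25 libraries lay above every library on a pure feed, which separates label years as well as feeds. CHI18-9 had 19.5 and 17.5 CPM on G90-L10 and 13.3 to 20.7 on G100.

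The same comparison of feeds was made at 24 h, with 4 libraries on G75-L25 and 6 on L100. The labels do not tie a 24 h to a 48 h library. If a flask was sampled at both times, the test below takes no account of it. At 24 h, 20 genes were DE over the same 34 libraries, 12 higher and 8 lower, and 6 over all 36. The 81 higher genes had a median log2 fold change of 2.62 at 48 h and 1.1 at 24 h, and the 68 lower genes -2.52 and -0.92. As these genes were chosen at 48 h, a smaller value at 24 h is partly set by that choice. The change of the difference with time was tested as an interaction at an adjusted p below 0.05. It was called for 604 of 8332 genes (7.25%) over the 34 libraries, 291 in the positive direction (3.49%) and 313 in the negative (3.76%). It was called for none of the 8347 genes over all 36 libraries (0.0%), where 1120 had an unadjusted p below 0.05 and DESeq2 called 110. The smallest adjusted p was 0.0503. Leaving out 1 library of the 4 groups at a time gave 0 to 131 genes, the most without replicate 1 of G75-L25 at 24 h (131) and without 2014_274 (110). A further library, 2015-430 of G75-L25 at 24 h, lay 0.64 from its own group and 0.53 from L100 at 48 h. Without it as well, 170 genes were called, 167 of them also among the 604. The median log2 fold change at 24 h was then 1.28 for the 81 higher genes and -1.33 for the 68 lower genes. Of the 149 genes DE at 48 h, 76 were called over 34 libraries and 29 over 33. Over the 34 libraries no interaction was called in the list of cellulases and accessory proteins, and 1 positive one, CEL3E, among the β-glucosidases.

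CHI18-9 had the smallest adjusted p of the named genes for the interaction. At 24 h it had 30.3 to 42.3 CPM on G75-L25 and 61.5 to 77.3 on L100, a log2 fold change of -1.03, and the interaction was -1.32 (SE 0.17, adjusted p = 9.57e-05), or -1.21 (adjusted p = 0.000278) without 2015-430. ID 65522 had 19.1 to 25.6 CPM on G75-L25 and 7.63 to 10.5 on L100 at 24 h, a log2 fold change of 1.28. Its interaction was 1.21 (SE 0.22, adjusted p = 0.00381), or 1.16 (adjusted p = 0.0127) without 2015-430. ID 104461 went from 1.06 at 24 h to 2.86 at 48 h, with an interaction of 1.80 (SE 0.35, adjusted p = 0.00567) and 1.80 (adjusted p = 0.0167) without 2015-430. ID 121818 was already DE at 24 h, with 231 to 290.4 CPM on G75-L25 and 32.8 to 48.8 on L100 and a log2 fold change of 2.73, and its interaction was 1.40 (SE 0.35, adjusted p = 0.0174). For YPR1 the value of -1.86 (SE 0.55, adjusted p = 0.0393) became -1.27 (adjusted p = 0.171) without 2015-430. ABF1 was also DE at 24 h, at a log2 fold change of -2.27, and its interaction of -0.56 (SE 0.25, adjusted p = 0.142) was not called.

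**Figure D5:**
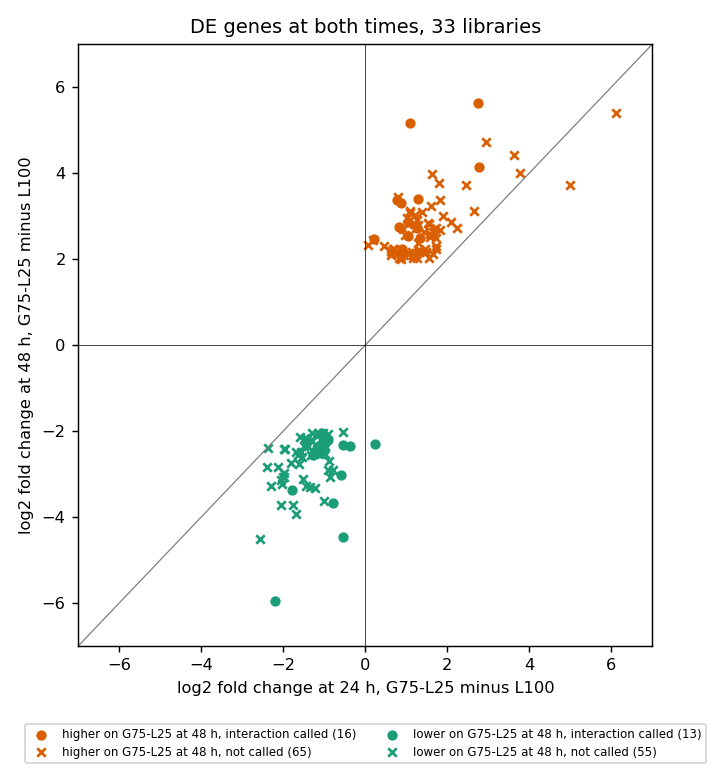
Log2 fold changes of the 149 DE genes at 24 h (x axis) and at 48 h (y axis), G75-L25 minus L100, over the 33 libraries without 2015-431, 2014_274 and 2015-430. Dots are genes with a called interaction (16 higher, 13 lower), crosses the others, and the grey line marks equal values. Most points lie farther from 0 at 48 h than at 24 h, which is partly set by the choice of the genes at 48 h.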

How the data were processed

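Strand-specific mRNA libraries (TruSeq) were sequenced by the authors as 50 bp reads, trimmed and filtered in their Eoulsan pipeline and counted per gene of annotation version 2 of the strain QM6a. The submitters' processing notes name bcl2fastq 2.17.1.14, Bowtie and HTSeq 0.5.3. The deposited count files hold raw counts of 9129 genes, 1 file per library, with 16364418 to 34114913 counts in each of the 10 libraries compared.

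Counts were scaled by TMM and fitted with edgeR 4.0.16 (R 4.3.3, quasi-likelihood) as 8 groups of feed and time, over 36 and 34 libraries, after filterByExpr with a minimum count of 10. Adjusted p is Benjamini-Hochberg over all genes tested, and DE means an adjusted p below 0.001 and a log2 fold change beyond 2 in either direction, the limits of the study's methods. CPM are normalized counts on the TMM scale, a floor is 3 counts in a library, and distances use log2 CPM with a prior count of 2. The lists come from the functions in the study's annotation table or from RefSeq symbols, 226 of which matched a gene in the files. Alternatives were DESeq2 1.42.0, RLE or library-size scaling, 2 filters, only the groups compared, other thresholds and leaving out libraries. The code was tested on simulated data.

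Genes named were the 6 DE genes of each fit and direction that ranked first by adjusted p, the cellulases, β-glucosidases, 8 regulators and 2 permeases, and up to 4 examples of each other list. Other genes were named after their values were seen. The members and lists were chosen with earlier results of these data known. Values of the study's own comparisons were not used.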

Additional observations from a re-analysis of the deposited data

Results flagged for a closer look

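For 43 named genes and both feeds, the highest and lowest library of each group were looked at in log2 CPM. The gap to the nearest other library, as a share of the range of the group, was set against Dixon's critical value. On the CPM scale itself the shares would differ, and low values would stand out less. It was exceeded in 34 of 86 cases, each time by 2014_274 or 2015-431. These 2 libraries had been singled out with earlier results of these data known, and part of the genes were named from the fit without them. The cases also share the same libraries, so that the count is no test against chance. The cause was not tested.

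The library labelled L100 with the title 2014_274 was the lowest of its group in 24 cases, with shares of the range given for each gene: CRT1 (0.893), CEL1B (0.876), CLR2 (0.862), CEL3D (0.927), CEL74A (0.932), ID 49976 (0.896), CHI18-9 (0.763), CBH2 (0.934), CIP1 (0.931), CEL61A (0.839), ACE3 (0.688), CEL3C (0.661), YPR1 (0.688), XLT1 (0.958), ID 105848 (0.861), ID 112133 (0.697), CEL5A (0.917), CEL1A (0.834), CEL7B (0.932), XYR1 (0.889), ID 123261 (0.713), ABF1 (0.85), CBH1 (0.934) and SWO1 (0.933). These include most of the cellulases and the regulator XYR1. The library labelled G75-L25 with the title 2015-431 was the highest of its group for CIP1 (0.952), CEL61A (0.846), YPR1 (0.984) and ID 123261 (0.866), and the lowest for ID 63217 (0.857), CEL3E (0.847), Tr-PRO1 (0.838), ID 79244 (0.865), CEL3B (0.87) and Tr-ACON-3 (0.869).

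The interaction of feed and time, G75-L25 against L100, was called for 12 named genes over 34 libraries (log2, 48 h minus 24 h). All of them but CEL3E and YPR1 were named for a small adjusted p at 48 h. That 48 h difference is a part of the interaction, so that these calls are partly set by the choice. The values were 0.98 for ID 50215, 1.00 for ID 63217, 1.21 for ID 65522, -1.32 for CHI18-9, -1.02 for ID 72780, 0.99 for CEL3E, -1.86 for YPR1, 1.80 for ID 104461, -0.97 for ID 105848, -1.69 for ID 112133, 1.40 for ID 121818 and 1.25 for ID 122487. Without 2015-430 as well, 5 of these 12 passed an adjusted p of 0.05 (ID 50215, ID 65522, CHI18-9, ID 104461 and ID 121818), and over all 36 libraries none did.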

How the results depend on the processing

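The count of DE genes at 48 h rested on 2015-431 and 2014_274: 27 with them and 149 without. With all libraries, it was 116 at an absolute log2 fold change above 1, 2279 at an adjusted p below 0.05, 5 with glmTreat (229 at an unadjusted p below 0.05) and 0 with only the groups compared (1863 at an unadjusted p below 0.05), and 20 to 72 without 1 library. RLE gave 26, library size 39, no filter 27, at least 10 counts in every library 21 and DESeq2 40. Without both libraries it was 590, 3962, 65 and 90 under the first 4 of these settings, 86 with at least 10 counts in every library, 149 with RLE, 210 with library size, 150 with no filter, 178 with DESeq2, 161 without 2015-430 as well, an alternative chosen after seeing the data, and 121 to 202 without 1 further library.

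The interaction was called for 0 genes over 36 libraries (1120 at an unadjusted p below 0.05), 20 with RLE, no filter or the stricter filter, 2 with library size, 110 with DESeq2, 0 with only the groups compared and 0 to 131 without 1 library. It was called for 604 without both libraries, then 633 with RLE, 1618 with library size, 596 with no filter, 570 with the stricter filter, 979 with DESeq2, 31 with only the groups compared and 170 without 2015-430. The cause of these moves was not tested.

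Of the 43 named genes, 4 turned direction without both libraries. In all settings without them, Tr-PRO1 went from -0.37 to 1.18, 1.16 and 1.59, Tr-ACON-3 from -1.16 to 0.87, 0.85 and 1.28 and CEL3B from -0.71 to 0.79, 0.77, 1.21 and 0.80. CEL1A went from 0.03 to -0.30 and -0.33, except with library size. Library size turned CEL12A from -0.15 to 0.24 and 0.40 (without both libraries in the latter), CLR2 from -0.27 to 0.091, CRT1 from -0.11 to 0.26 and CEL3C from -0.36 to 0.0017. Leaving out 1 library gave -0.22 to 0.16 for CEL1A, -0.93 to 0.52 for CEL3B, -1.39 to 0.56 for Tr-ACON-3, -0.56 to 0.90 for Tr-PRO1 and -0.49 to 0.17 for CEL12A. Without both libraries, 33 named genes kept direction and side of the threshold and 6 passed it newly.

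No paired analysis was possible because the labels give no replicate numbers shared between the groups. With 3 and 5 libraries left, precision rests on few cultures, label year and feed cannot be told apart, and a fold is given as a bound where a whole group had 3 counts or fewer per library.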
